A study of Mus musculus with 10 samples.

Results

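The genes that make cholesterol, that move it inside the cell and that control the transcription factor SREBP2 were followed in cultured mouse adipocytes given one of a pair of related fatty acids. The members were 27 genes named by symbol, former symbols included, and every probe set annotated to one of them was taken. Of these, 25 were found among the 18193 genes with a probe set, through 58 probe sets, and all 25 were bright enough to be among the 10916 genes tested. Acat2 and Soat1 had no probe set annotated to them alone and were not analysed here. The rule that chose them uses gene names and no measured value, but it was written with earlier results of these data known.

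The cells were adipocytes of the line 3T3-L1, mouse fibroblasts that store fat once they are made to differentiate in culture. Cultures received c9t11 CLA, the conjugated form of linoleic acid whose neighbouring double bonds are cis and trans, or LA, which served as the control. The labels do not spell LA out; it commonly stands for linoleic acid, the unconjugated parent. RNA was taken at 8 h and 12 h and measured on 10 Affymetrix arrays, with 4 LA arrays at each time (biological replicates 1 to 4) and 1 CLA array at each time, both numbered replicate 1. No genotype or strain difference separated the groups, a fatty acid was given to every culture, no untreated culture was analysed here, and CLA had no second array at either time.

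Cells build cholesterol from acetyl-CoA through mevalonate, isoprenoid diphosphates, squalene and lanosterol. When sterols in the endoplasmic reticulum run low, the escort protein SCAP carries the SREBP2 precursor to the Golgi, where proteases release its transcription factor domain, and genes of the pathway are transcribed. When sterols are plentiful, INSIG proteins hold SCAP and the precursor back. Adipocytes keep a large pool of unesterified cholesterol in their lipid droplets and membranes.

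Markers of fat cells were high on every array: Adipoq, the adiponectin gene, lay between 12.68 and 13.14 on the log2 intensity scale, and none of the 8 adipocyte markers was at the floor of the scale on any array. Of the markers for other cells, Ptprc, Itgam and Lyz2 (macrophage), Ucp1, Myog and Myh3 (brown fat and muscle) and Apoa1 and Fgb (liver) were at the floor on all 10 arrays, which made 3 of 8, 3 of 8 and 2 of 4 in those lists. Others were measured: the macrophage markers Csf1r and Adgre1 were above the floor on all arrays, at up to 8.23 and 7.02. Des, the muscle filament gene desmin, lay at 7.40 to 7.54 in LA replicate 1, 7.25 to 7.46 in CLA and 3.84 to 6.07 in LA replicates 2 to 4, and Cidea, a lipid droplet gene high in brown fat, at 5.89 to 6.29, 5.66 to 6.24 and 3.84 to 5.71. The floor is the lowest value the log2 scale was allowed to take, 3.84. The LA array of replicate 4 at 12 h stood apart in RNA quality: the intensity of actin probe sets at the 3′ end was 5.67 times that at the 5′ end, against 1.45 to 2.60 on the other arrays, and the same ratio for Gapdh was 1.42 against 0.81 to 0.92. Arrays of the same replicate number resembled each other across genes, and 50.1% of all genes tested differed among the 4 LA replicate numbers at an adjusted p under 0.05, so the members are described array by array first. In bulk RNA, fewer cells of a type and less RNA per cell cannot be told apart.

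Among the enzymes from acetyl-CoA to the isoprenoid diphosphates, Hmgcs1 and Idi1 were low in LA replicates 1 and 2 and in CLA at 8 h and high in LA replicates 3 and 4. Hmgcs1, which makes HMG-CoA, measured 8.01, 8.94, 9.97 and 10.58 in LA replicates 1 to 4 at 8 h, 8.24, 9.17, 9.79 and 9.91 at 12 h, and 7.82 and 8.90 with CLA at 8 h and 12 h. Idi1, the isomerase that interconverts isopentenyl and dimethylallyl diphosphate, measured 6.35, 6.05, 7.36 and 9.33 at 8 h, 6.45, 6.70, 7.98 and 8.42 at 12 h, and 5.24 and 7.21 with CLA. For both genes all LA arrays of replicates 3 and 4 were above all LA arrays of replicates 1 and 2, and the lowest array of all 10 was CLA at 8 h. From the lowest to the highest LA array, the level of Hmgcs1 spanned 5.93-fold and that of Idi1 9.69-fold.

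Other early enzymes had a different order. Mvk, the kinase that phosphorylates mevalonate, measured 6.18, 4.97, 3.84 (the floor) and 5.76 in the LA replicates at 8 h, 6.17, 4.90, 4.67 and 5.07 at 12 h, and 6.94 and 5.59 with CLA. Mvd, which decarboxylates mevalonate diphosphate, measured 7.07, 5.92, 6.23 and 6.66 at 8 h, 7.11, 5.41, 6.50 and 5.03 at 12 h, and 6.92 and 7.17 with CLA. In both, the LA replicate 1 arrays were above all other LA arrays, an order that no member showed on the deposited scaling. Fdps, the farnesyl diphosphate synthase, measured 10.04, 8.59, 9.83 and 10.07 at 8 h, 10.13, 8.11, 9.65 and 8.61 at 12 h, and 10.09 and 10.07 with CLA. The low arrays for Fdps were both of replicate 2 and replicate 4 at 12 h, and the other LA arrays and both CLA arrays lay close together. Pmvk, the next kinase after Mvk, ranged from 5.41 to 8.22 over the LA arrays, with replicate 4 at 8 h the highest, and stood at 7.33 and 7.45 with CLA. Ggps1, which makes geranylgeranyl diphosphate for protein prenylation, ranged from 5.37 to 6.33 and stood at 5.61 and 5.34 with CLA.

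On the quantile scale, the enzymes from squalene to cholesterol were mostly lowest in LA replicate 2. Fdft1, the squalene synthase, measured 8.00, 6.85, 7.89 and 9.78 at 8 h, 8.47, 7.32, 8.40 and 8.99 at 12 h, and 8.43 and 8.59 with CLA. Sqle, the squalene epoxidase, measured 8.83, 8.40, 8.43 and 9.42 at 8 h, 8.94, 8.74, 8.85 and 8.39 at 12 h, and 9.01 and 9.64 with CLA. The LA arrays spanned 2.06-fold for Sqle and 7.65-fold for Fdft1. Lss, which closes squalene epoxide into lanosterol, measured 8.37, 6.93, 7.94 and 8.04 at 8 h, 8.35, 6.86, 8.19 and 7.24 at 12 h, and 8.29 and 8.89 with CLA. Cyp51, the lanosterol demethylase, measured 7.96, 7.47, 9.76 and 8.80 at 8 h, 8.58, 7.96, 10.21 and 7.86 at 12 h, and 8.25 and 9.10 with CLA. The highest arrays for Cyp51 were both of LA replicate 3, and CLA at 12 h was above all LA arrays for Lss and Sqle.

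Msmo1, Nsdhl and Hsd17b7 act in turn to strip methyl groups from the sterol ring. Msmo1 measured 9.21, 8.24, 8.89 and 10.52 at 8 h, 9.58, 8.57, 9.59 and 9.09 at 12 h, and 9.45 and 9.85 with CLA. Nsdhl measured 8.90, 8.46, 9.48 and 9.88 at 8 h, 8.90, 8.51, 9.61 and 9.03 at 12 h, and 9.02 and 9.25 with CLA. Hsd17b7 measured 5.81, 5.44, 5.89 and 7.87 at 8 h, 6.03, 5.48, 6.65 and 7.31 at 12 h, and 5.58 and 6.87 with CLA. On the quantile scale all 3 were lowest on both replicate 2 arrays and highest on the replicate 4 array at 8 h. In the deposited intensities Hsd17b7 was lowest in LA replicate 1, at 28.2 (8 h) and 46.9 (12 h) against 53.6 and 65.6 in replicate 2. Nsdhl was also lowest in LA replicate 1 there, at 294.5 and 400.5 against 386.2 and 453.9 in replicate 2. Msmo1 stayed lowest in LA replicate 2 at each time. Dhcr7, the reductase of the last step, measured 7.47, 6.51, 8.13 and 8.16 at 8 h, 7.84, 6.66, 8.23 and 7.78 at 12 h, and 7.38 and 8.12 with CLA. Tm7sf2, a sterol reductase, measured 5.88, 4.21, 5.83 and 7.93 at 8 h, 6.50, 4.55, 6.09 and 5.21 at 12 h, and 5.07 and 5.13 with CLA. Tm7sf2 had the widest span of any member over the LA arrays, 13.2-fold, between replicate 2 and replicate 4 at 8 h. Ebp, a sterol isomerase, spanned 7.95 to 8.81, and Sc5d, a sterol desaturase, 5.94 to 7.93.

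**Figure D1:**
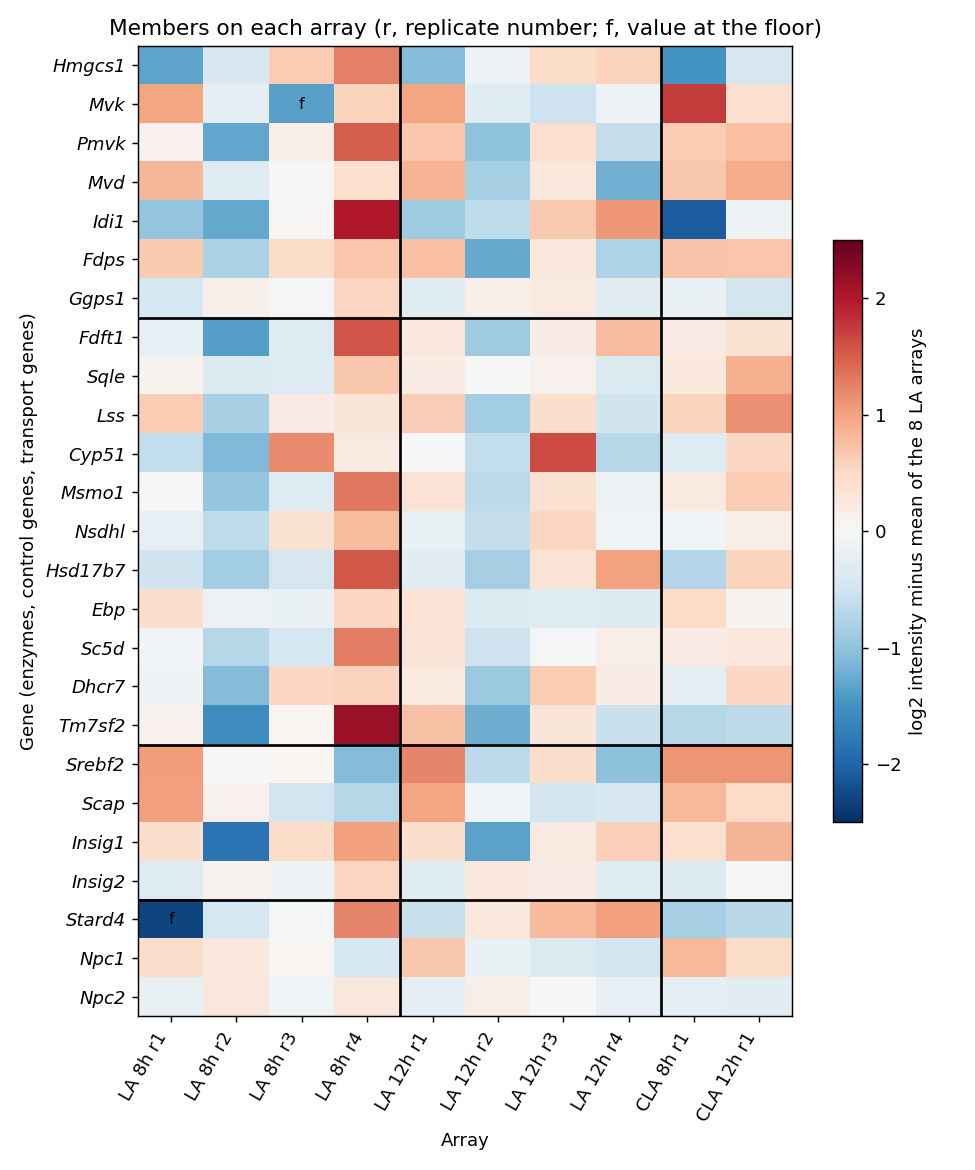
Log2 intensity of each of the 25 members (rows) on each of the 10 arrays (columns) minus its mean over the 8 LA arrays, in colour; horizontal lines separate early enzymes, late enzymes, control genes and transport genes. On the quantile scale LA replicate 4 at 8 h was above the LA mean for 18 of 18 synthesis enzymes, and each LA replicate 2 array for 1 of 18.

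Of the control genes, Srebf2 and Scap were high on the replicate 1 arrays. On these arrays 9 (8 h) and 13 (12 h) of 18 synthesis enzymes were above their LA mean in LA. In CLA 10 and 14 were. Srebf2, which encodes the SREBP2 precursor, measured 7.26, 6.20, 6.26 and 5.13 in LA replicates 1 to 4 at 8 h, 7.44, 5.55, 6.65 and 5.17 at 12 h, and 7.31 and 7.32 with CLA. Scap measured 8.56, 7.66, 7.07 and 6.83 at 8 h, 8.53, 7.48, 7.09 and 7.14 at 12 h, and 8.36 and 8.05 with CLA. For both genes the replicate 1 arrays, CLA included, were above all other arrays on this quantile scale. The replicate 4 array at 8 h was the lowest on the same scale. On the deposited scaling no member had both LA replicate 1 arrays above all other LA arrays. There Srebf2 was lower in LA replicate 4 at 12 h than at 8 h, at 43.8 against 44.7. Scap was lower in LA replicate 3 at 12 h, at 133.8 against 147.0 in LA replicate 4 at 8 h. Insig1, an anchor of SCAP that is itself a target of SREBP, measured 9.62, 7.34, 9.65 and 10.22 at 8 h, 9.63, 7.86, 9.42 and 9.79 at 12 h, and 9.58 and 10.04 with CLA. Insig2, the other anchor, measured 7.45, 7.85, 7.65 and 8.31 at 8 h, 7.46, 8.03, 7.98 and 7.45 at 12 h, and 7.43 and 7.77 with CLA. Insig1 was far below its other values on both replicate 2 arrays, and Insig2 was not.

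Of the transport genes, Stard4, a cytosolic sterol carrier, measured 3.84 (the floor), 5.71, 6.10 and 7.37 at 8 h, 5.59, 6.41, 6.95 and 7.16 at 12 h, and 5.32 and 5.45 with CLA. At both times its level was lowest in LA replicate 1 and highest in LA replicate 4. Npc1, the membrane protein that lets cholesterol out of lysosomes, measured 5.61, 5.45, 5.21 and 4.74 at 8 h, 5.85, 5.01, 4.81 and 4.72 at 12 h, and 5.99 and 5.63 with CLA. On this quantile scale the order of the LA replicates was opposite to that of Stard4. In the deposited intensities Npc1 was lowest in LA replicate 1 at 8 h, at 24.5 against 53.8, 44.3 and 33.4 in replicates 2 to 4. At 12 h Npc1 was 40.9 there, against 47.9, 28.7 and 31.8. Npc2, its soluble partner, was nearly level, between 11.25 and 11.76 over the LA arrays, with CLA at 11.24 and 11.19. On the quantile scale it was the only member whose CLA value lay outside all 4 LA arrays of its time on the same side at both times. This held for 9.76% of genes tested. The nearest LA array lay close, at 11.27 at 8 h and 11.25 at 12 h. In the deposited intensities CLA at 8 h was 2558, above LA replicate 1 at 1899.

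Counts of such orders were chosen after the values had been seen and are given as a description. On the quantile scale LA replicate 4 at 8 h was the highest of the 8 LA arrays in 15 of 25 members, against 13.3% of all genes tested. It was the lowest in Srebf2 and Scap, against 9.94%. Both replicate 2 arrays were below all other LA arrays in 11 of 25 members, against 8.17% of genes tested. Those 11 were Pmvk, Fdps, Fdft1, Lss, Msmo1, Nsdhl, Hsd17b7, Sc5d, Dhcr7, Tm7sf2 and Insig1. Both replicate 3 arrays were above both replicate 2 arrays in 16 of 25 members, against 31.2%, and both replicate 1 arrays were above all other LA arrays in 6 of 25, against 29.9%. Without normalization between arrays, on the deposited scaling, replicate 2 was lowest in 3 of 25 members against 1.36%, replicate 4 at 8 h was highest in 21 of 25 against 28.6%, and replicate 1 was highest in 0 against 4.06%. With median centring these counts were 12, 16 and 6 of 25. Over the 18 synthesis enzymes the median deviation from the LA mean was 0.74 in replicate 4 at 8 h but -0.19 in replicate 4 at 12 h, and -0.80 and -0.64 in replicate 2. The summed level of 11 preadipocyte and fibroblast markers was also highest in replicate 2, 33894 at 8 h and 33315 at 12 h, against 9069 to 27426 on the other LA arrays, and its part in the low enzyme values was not tested.

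**Figure D2:**
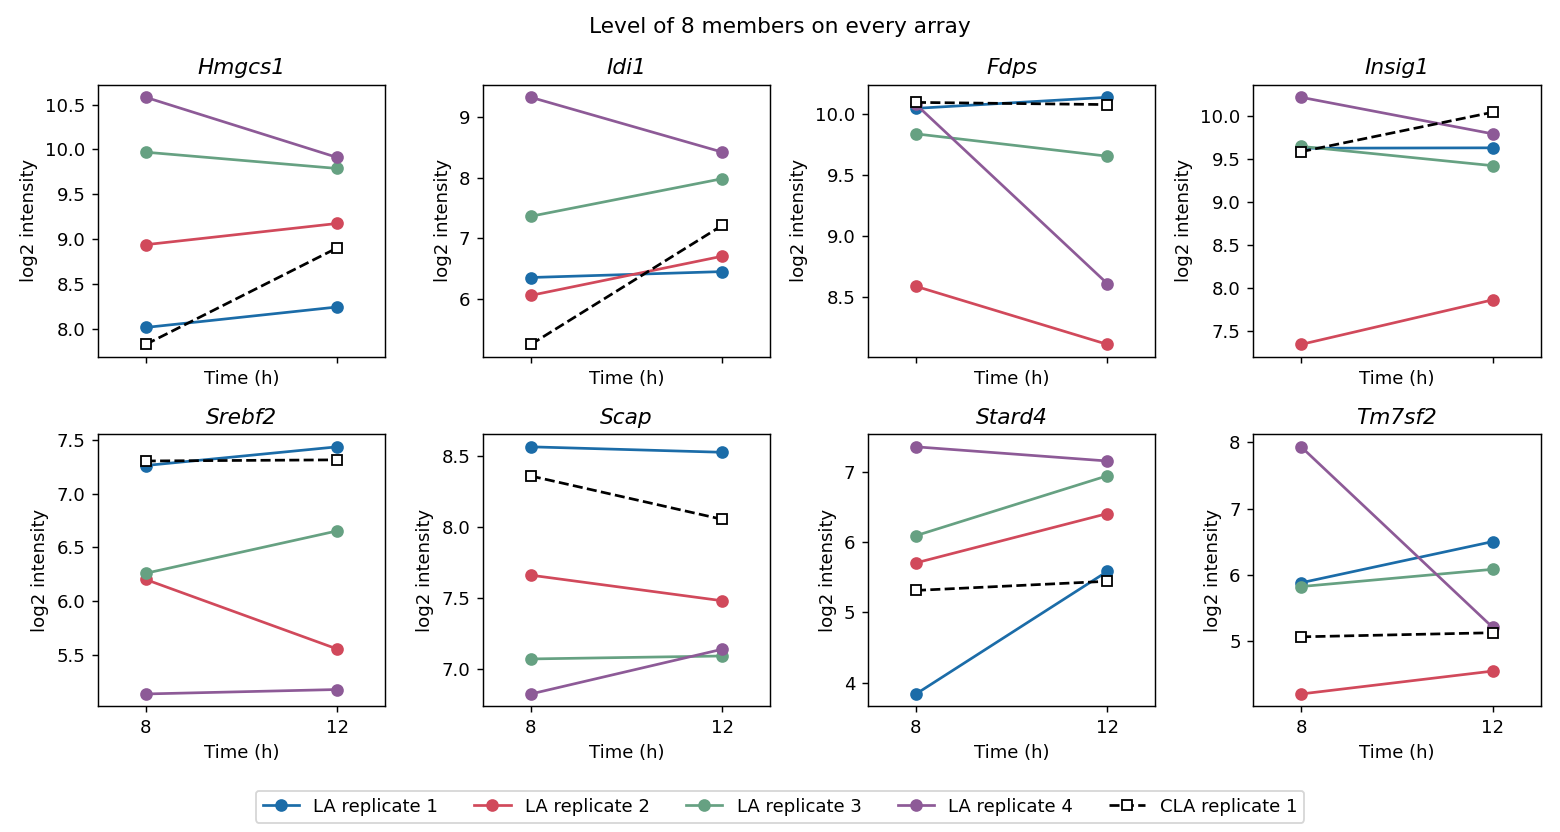
Log2 intensity (vertical axes, 1 scale per gene) at 8 h and 12 h (horizontal axes) of 8 members; coloured lines join LA arrays of the same replicate number and the dashed black line joins the 2 CLA arrays. Hmgcs1, Idi1 and Stard4 were highest in LA replicate 4, while Srebf2 and Scap were highest in replicate 1 on this quantile scale, an order that no member showed on the deposited scaling.

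Promoter sequence was set beside these orders because members that share a regulator may share letters. RefSeq windows of 250 bases before the transcription start (GRCm38.p6) were found for 22 of the 27 members and were searched on both strands for TCACNCCAC, the classic letters of a sterol regulatory element, and for CCAAT, the letters bound by NF-Y, a usual partner of SREBP; these motifs do not overlap in spelling. CCAAT was present in 20 of 22 members, against 37.5% of 27025 genes, and 12 of 22 had at least 2 copies, against 11.5%. TCACNCCAC was present in 1 of 22, Hmgcs1, against 1.22% of genes. Shown are Hmgcs1 and Idi1, which were low in LA replicate 1 and highest in replicate 4 at 8 h. Scap is also shown, which had the opposite order on the quantile scale and no match to either motif. A CCAAT match did not follow these orders. Srebf2, with the same order as Scap, had 1 match. Mvk and Mvd, also highest in LA replicate 1 on the quantile scale, had 5 and 2. Matches are in capitals, with CCAAT on the other strand read as ATTGG. The windows lie on the plus strand at chr13:119690101-119690350 (Hmgcs1), chr13:8885356-8885605 (Idi1) and chr9:110333038-110333287 (Scap, the window of the more upstream of 2 starts).
Hmgcs1: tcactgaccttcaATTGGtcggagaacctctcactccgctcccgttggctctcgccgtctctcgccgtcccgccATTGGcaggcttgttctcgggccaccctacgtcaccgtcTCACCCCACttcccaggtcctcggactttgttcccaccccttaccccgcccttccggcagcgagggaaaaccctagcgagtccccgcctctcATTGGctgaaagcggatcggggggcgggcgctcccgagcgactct
Idi1: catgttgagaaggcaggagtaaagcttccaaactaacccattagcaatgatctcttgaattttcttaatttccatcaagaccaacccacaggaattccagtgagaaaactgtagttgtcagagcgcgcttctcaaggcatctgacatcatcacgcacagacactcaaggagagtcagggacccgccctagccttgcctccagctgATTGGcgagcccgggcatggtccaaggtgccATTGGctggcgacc
Scap: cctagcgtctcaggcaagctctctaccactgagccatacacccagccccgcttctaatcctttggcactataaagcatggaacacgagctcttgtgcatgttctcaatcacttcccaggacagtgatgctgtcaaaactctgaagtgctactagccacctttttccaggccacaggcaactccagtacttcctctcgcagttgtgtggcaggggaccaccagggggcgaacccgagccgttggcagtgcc
In Hmgcs1 the sterol element letters read TCACCCCAC and began 137 bases before the start. A match is a description of the letters and not of binding.

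Whether the pathway moved between 8 h and 12 h under LA was asked with 4 arrays at each time. In a fit that did not pair arrays by replicate number, no member passed the test (0 of 25, with 0% of the 10916 genes tested called). In that fit 0 members had an unadjusted p under 0.05, against 0.238% of genes. With the replicate number as a block, 0 of 25 members were called again (0% of genes). In the blocked fit 4.19% of genes had an unadjusted p under 0.05. The members' median difference, 12 h minus 8 h, was -0.04 (8 above 0 and 17 below), beside -0.01 over all genes tested. The 4 pairs of the same replicate number did not run the same way. In pairs 1, 2 and 3 the members' median change was 0.12, 0.15 and 0.26, with 20, 16 and 20 of 25 members higher at 12 h, and in pair 4 it was -0.80, with 23 of 25 lower. The median over all genes tested was 0 in each pair and 46.7% of them were lower at 12 h in pair 4. On the deposited scaling the members' medians were 0.70, 0.37, 0.02 and -1.09, beside 0.38, 0.21, -0.22 and -0.11 over all genes. The drops in pair 4 were steepest for Tm7sf2 (-2.72), Pmvk (-2.11), Mvd (-1.62), Fdps (-1.47) and Msmo1 (-1.44), and only Srebf2 (0.04) and Scap (0.31) were not lower at 12 h. This pair holds the array with the high actin ratio, at 12 h. In the same pair the summed preadipocyte and fibroblast markers went from 15958 to 27426 and the summed adipocyte markers from 39369 to 30632, and the part of any of these in the drop was not tested. Without the other array of pair 4, LA replicate 4 at 8 h, the members' median difference over time was 0.21 with 17 of 25 above 0, and without replicate 2 at 12 h it was 0.06 with 14 above 0. Both of these fits kept the array with the high actin ratio.

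Stard4 had the widest positive change over time, 0.78 ± 0.69 (SE), with pairs at 1.75, 0.70, 0.86 and -0.20; the pair 1 value starts from the floor. With the replicate number as a block it was the only member with an unadjusted p under 0.05 (0.0459; 4.19% of genes), and its limma adjusted p was 0.791. Ebp was the only member lower at 12 h in all 4 pairs (-0.08, -0.21, -0.13 and -0.85), which 6.43% of genes tested were.

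**Figure D3:**
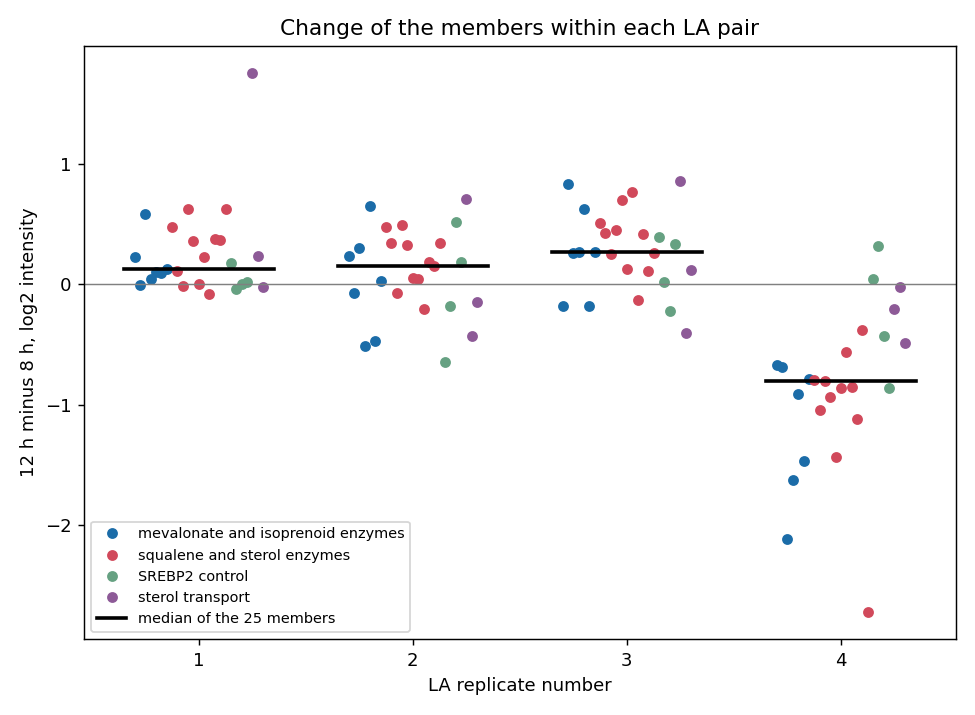
Change in log2 intensity from 8 h to 12 h (vertical axis) within each LA pair of the same replicate number (horizontal axis), 1 point per member coloured by role, with the median of the 25 members as a bar. The medians of pairs 1 to 3 lie between 0.12 and 0.26 and that of pair 4 at -0.80.

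Differences among the 4 LA replicate numbers were tested in the LA arrays with time as a further term. Of the 25 members 14 were called at an adjusted p under 0.05 (limma F-test), against 50.1% of all genes tested, so the share of members called was near the background, and 15 of 25 had an unadjusted p under 0.05, against 60.1%. On the deposited scaling 13 of 25 were called, against 45.2%. The called members were Hmgcs1, Mvk, Idi1, Fdps, Fdft1, Lss, Cyp51, Nsdhl, Hsd17b7, Dhcr7, Srebf2, Scap, Insig1 and Stard4. The smallest adjusted p among them were 0.00438 for Insig1, 0.00535 for Scap and 0.00559 for Hmgcs1. Each number had 2 arrays and 3 degrees of freedom remained for the spread. Without the LA replicate 4 array at 12 h, the count was 23 of 25 (59.9% of all genes), with Ggps1 and Npc1 as the exceptions, and without replicate 4 at 8 h it was 19 of 25 (59% of all genes). Without replicate 1 at 8 h or at 12 h it was 0 of 25, with 3.72% and 12% of all genes called. Without replicate 2 at 8 h or at 12 h it was 5 of 25 each time, with 20.9% and 24.5% of all genes called, and without replicate 3 at 8 h it was 10 of 25 (36.5%). With double the floor it was 8 of 25 (37.4% of all genes), and without the filter on dim genes 2 of 25, Scap and Insig1 (11.3%).

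LA replicate 1 was set against LA replicates 2 to 4 because both CLA arrays carry that number. Of the 25 members 11 were called, against 53.1% of all genes tested, 8 of them higher in replicate 1 (29.7% of all genes) and 3 lower (23.5%), and 12 had an unadjusted p under 0.05, against 59.7%. The split depends on the scaling: on the deposited scaling 8 members were called, against 43.3% of all genes, and all 8 were lower, and the median of all genes moved from 0.18 to -0.53. Hmgcs1, Idi1 and Stard4 were lower under quantile normalization, median centring and the deposited scaling alike. Hmgcs1 fell by 1.60 (SE 0.20, adjusted p = 0.00189) with all 5 of its probe sets below 0, and the difference was -2.31 on the deposited scaling. The dimmest of the 5 was above the floor on only 3 arrays and at the floor on both LA replicate 1 arrays, so it could not lie above 0. Idi1 fell by 1.24 (SE 0.32, adjusted p = 0.0181), with its other probe set at -1.75, and it stood at -2.21 on the deposited scaling. Stard4 fell by 1.90 (SE 0.36, adjusted p = 0.0063), and its other probe sets gave -1.76 and -0.80; on the deposited scaling it was -2.44.

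The 8 members called higher in replicate 1 were Srebf2 (1.52), Scap (1.33), Mvk (1.31), Mvd (1.13), Fdps (0.94), Lss (0.83), Npc1 (0.74) and Insig1 (0.58), and none of them passed on the deposited scaling, where Mvk, Npc1 and Insig1 changed sign. There Srebf2 stood at 0.61 and Scap at 0.59. The brightest of the Srebf2 probe sets gave 1.52 and the other 0.95. For Mvk the second bright probe set gave 0.00, and for Lss the other bright probe sets gave 0.90 and -0.40. When the 2 arrays of a replicate number were averaged and counted once, 0 members were called in either direction (960 genes were, and 2 members had an unadjusted p under 0.05), and the lowest member adjusted p was 0.105 for Scap. Without replicate 1 at 8 h only Scap was called (20.2% of all genes), and without replicate 1 at 12 h Hmgcs1, Scap and Stard4 were (24.7%). With double the floor 6 members were called (43.9% of all genes), and without the filter on dim genes 3 were (21.6%). Leaving out replicate 2 gave 6 called members at either time (41% of all genes at 8 h and 40.7% at 12 h), and leaving out replicate 3 at 8 h gave 7 (43.5%). Leaving out replicate 4 gave 16 at 8 h (60.9%) and, at 12 h, 17 (58.2%), of which 8 were higher and 9 lower. The summed level of the preadipocyte and fibroblast markers was 9069 and 14403 on the LA replicate 1 arrays and 15958 to 33894 on the other LA arrays, and all 11 were lower in replicate 1, 7 of them called. Of the 3 muscle and brown fat markers tested, Des (2.75) and Cidea (1.94) were called higher in replicate 1, as was the macrophage marker Adgre1 (1.94), and all 3 were also called higher on the deposited scaling. Adgre1 was the only 1 called of 4 macrophage markers tested. On the deposited scaling the macrophage marker Csf1r was called lower (-1.18) and Cd14 stood at -0.15. Of 8 adipocyte markers 2 were called higher in replicate 1, and on the deposited scaling 1 was called higher and 1 lower. The part of these markers in the member differences was not tested.

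**Figure D4:**
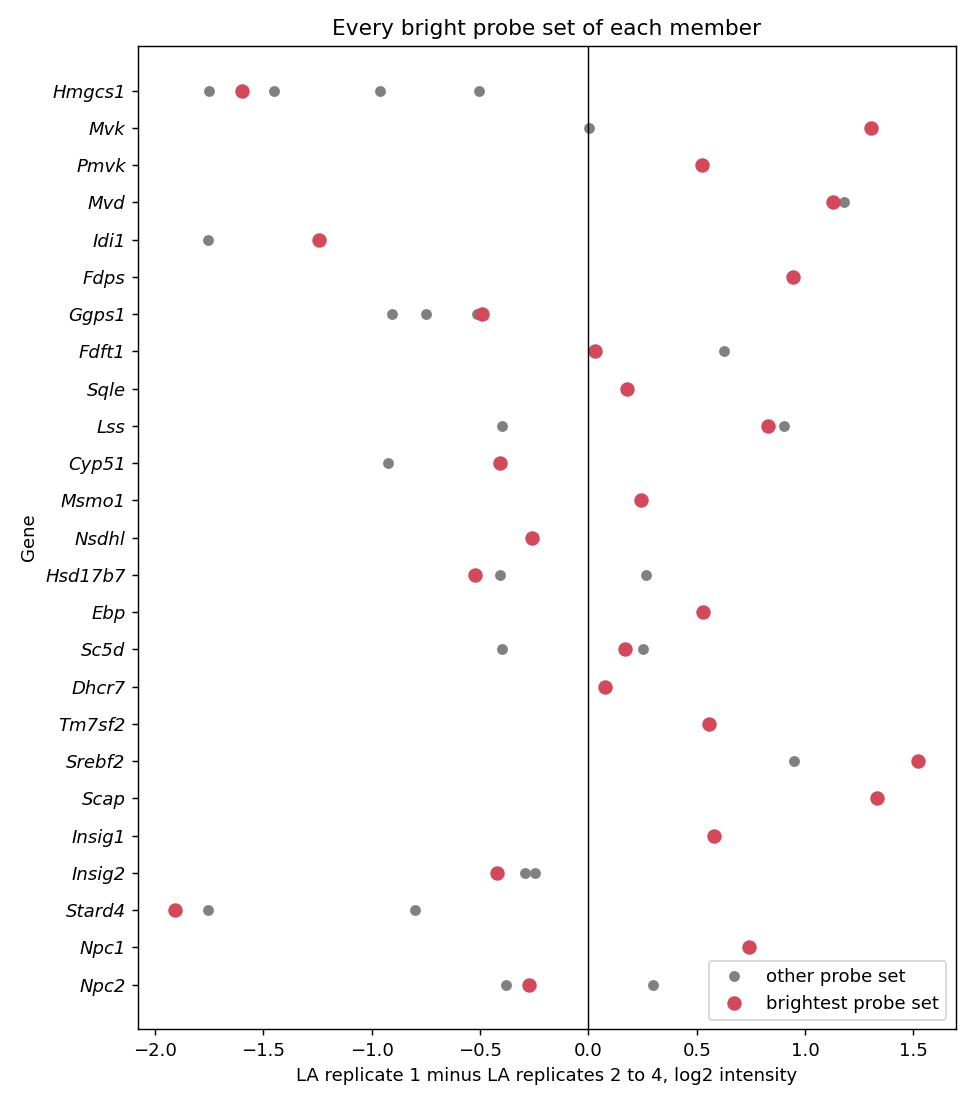
Difference in log2 intensity between LA replicate 1 and LA replicates 2 to 4 (horizontal axis, quantile scale) for every bright probe set of each member (vertical axis), with the brightest in red. Of 14 members with several bright probe sets, 10 had all on 1 side of 0, among them Hmgcs1, Idi1 and Stard4 on the low side and Srebf2 and Mvd on the high side; on the deposited scaling Srebf2 stood at 0.61 and Mvd at 0.19, and neither passed.

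The comparison the study was set up for, CLA against LA, gave no call among the members. Over both times 0 of 25 passed (0% of 10916 genes; 9.12% had an unadjusted p under 0.05), and 0 members had an unadjusted p under 0.05. The members' median difference was 0.28 with 17 above 0 and 8 below, beside 0.15 over all genes; on the deposited scaling it was 0.01 with 13 above 0. In the same fit all 11 preadipocyte and fibroblast markers were below 0, with a median of -1.03, and all 3 muscle and brown fat markers tested were above 0, with a median of 1.32, with 0 called in either list; their part in the member values was not tested. The farthest from 0 were Srebf2 at 1.10 (95% interval -0.24 to 2.45), Idi1 at -1.10 (-2.87 to 0.66) and Mvk at 1.07 (-0.26 to 2.41). Hmgcs1 stood at -0.96 (-2.30 to 0.37) and Lss at 0.85 (-0.16 to 1.85). The 3 bright probe sets of Lss ran from -0.46 to 0.85. Of 14 members with several bright probe sets, 10 had all of them on the same side of 0 for CLA against LA. The lowest member adjusted p was 0.457. For 21 of the 25 members the interval reached past a log2 difference of 1 in at least 1 direction, so the interval did not exclude a difference of that size.

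With the replicate number as a block, which sets both CLA arrays beside LA replicate 1, again 0 of 25 members passed (0% of genes; 4.53% unadjusted), and the median was 0.11. The marker medians were then -0.11 for preadipocyte and fibroblast genes, with 10 of 11 below 0, and -0.14 for muscle and brown fat genes. Srebf2 then stood at -0.04 (-0.67 to 0.59), Mvk at 0.09 (-0.95 to 1.14), Idi1 at -0.17 (-1.38 to 1.03) and Hmgcs1 at 0.24 (-0.54 to 1.01). The Mvk value depends on the probe set. Its second bright probe set gave 1.17 for CLA minus all LA arrays and also 1.17 for CLA minus LA replicate 1. The sign changed for 10 of 25 members. The widest blocked differences were -1.09 for Tm7sf2 (-2.68 to 0.49) and 0.67 for Stard4 (-0.29 to 1.63). For Scap the blocked difference was -0.34 (-0.79 to 0.12), against 0.66 without the block.

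**Figure D5:**
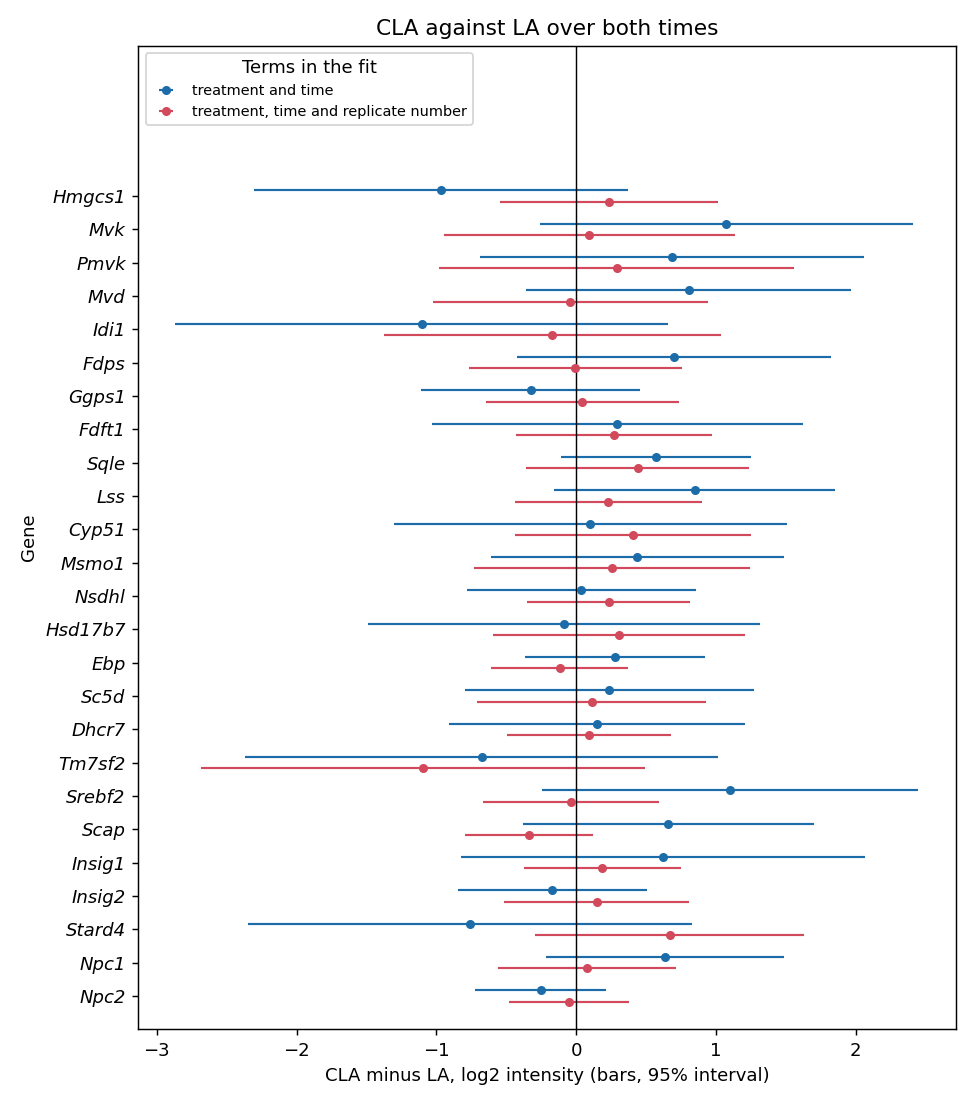
CLA minus LA over both times in log2 intensity (horizontal axis) for each member (vertical axis), as points with 95% intervals, from the fit of treatment and time (blue) and with the replicate number as a further term (red). Every interval covers 0, and Srebf2 moved from 1.10 to -0.04 with the replicate number in the fit.

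The CLA arrays and the LA arrays of replicate 1 can be set side by side at each time, without a test, since there is 1 array of each. The members' median difference was 0.05 at 8 h and 0.07 at 12 h, with 14 of 25 members above 0 each time, beside 49.1% and 47.7% of all genes. On the quantile scale CLA was above LA replicate 1 at both times in 6 members, Pmvk, Fdft1, Sqle, Cyp51, Msmo1 and Nsdhl (25.3% of genes). It was below LA replicate 1 at both times in 3, Tm7sf2, Scap and Npc2 (22% of genes). Sqle differed by 0.18 and 0.70, Cyp51 by 0.30 and 0.52, and Tm7sf2 by -0.81 and -1.37. The Stard4 difference of 1.48 at 8 h is set against an LA value at the floor.

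At 8 h and at 12 h taken alone, and for the difference between the 2 effects, 0 of 25 members passed, with or without the block (0% of genes each). Without the block, 0 members had an unadjusted p under 0.05 in any of the 3, against 4.47%, 1.7% and 1.06% of genes. The members' median CLA difference was 0.23 at 8 h and 0.45 at 12 h, beside 0.16 and 0.09 over all genes. With the block they were -0.06 and 0.34. Hmgcs1 went from -0.35 at 8 h to 0.82 at 12 h with the block, a change in effect of 1.17 ± 0.40 (SE; unadjusted p = 0.0239, limma adjusted p = 0.65). Idi1 went from -1.10 to 0.76, a change of 1.85 ± 0.62 (SE; unadjusted p = 0.0231, limma adjusted p = 0.65). Neither passed the correction, and 6.68% of genes had an unadjusted p under 0.05 in that fit. Between the CLA arrays themselves, Idi1 was 1.97 higher at 12 h than at 8 h, Hsd17b7 1.28 and Hmgcs1 1.08, where LA replicate 1 moved by 0.10, 0.23 and 0.23. Of the 18 synthesis enzymes 14 were higher at 12 h in CLA (median 0.24) and 15 in LA replicate 1 (median 0.17).

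The authors' deposited table, which pools both times, gives a CLA over LA ratio above 1 for 15 of 25 members and below 1 for 10. An unadjusted p under 0.05 stands beside 5 of 25 members in the authors' deposited table, and beside 26.5% of all genes tested: Srebf2 with a ratio of 2.12, Lss with 1.68, Npc1 with 1.33, Ggps1 with 0.573 and Stard4 with 0.333. With Benjamini-Hochberg adjustment, the authors' deposited table gives 513 of the genes tested and 0 members.

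Around the members, 61 further genes of the pathway were followed in 4 lists. Over both times, CLA against LA gave no call among them (0% of all genes). The median CLA difference was 0.02 for 12 tested genes of SREBP processing and sterol-dependent degradation, 0.35 for 18 of sterol transport and esters, 0.05 for 12 of isoprenoid use and 0.17 for 9 of other synthesis steps, beside 0.15 over all genes. Among the LA replicate numbers 9, 10, 9 and 4 of them differed, against 50.1% of all genes. In LA replicate 1 against 2 to 4, calls ran both ways: 4 higher and 5 lower in the processing list, 6 and 6 in transport, 4 and 5 in isoprenoid use and 2 and 1 in other steps. On the deposited scaling they were 0 and 7, 1 and 6, 1 and 6, and 1 and 3. Mbtps2, the site-2 protease that releases SREBP, fell by 1.49 (adjusted p = 0.00189), and Sec23a, a coat protein of the vesicles that leave the endoplasmic reticulum, fell by 1.33 (adjusted p = 0.00124). On the deposited scaling they stood at -2.47 and -2.13. Lamp2, a lysosomal membrane protein, stood at -1.97, and Nus1, a subunit of the prenyltransferase that makes dolichol, at -1.46. Fntb, the beta subunit of protein farnesyltransferase, was 1.85 higher in replicate 1 and 0.96 higher on the deposited scaling. Stard5, a sterol-binding protein, was 1.87 and 1.06 higher. Aacs, which activates acetoacetate, was 2.26 higher in replicate 1 and 1.61 higher on the deposited scaling. Mbtps2 was also the gene of these lists with the smallest unadjusted p for CLA, at -1.96 with an adjusted p of 0.457.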

How the data were processed

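RNA of 10 cultures was hybridised to Affymetrix 3′ expression arrays. The authors deposited probe set intensity values on a linear scale, of which 22.5% were 0 or below; scaling and software are not given in the sources used here. The authors deposited a second table with the ratio and fold change of CLA over LA pooled over both times, its log10 value and error, and an unadjusted p-value, with the error model not stated.

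Of 45101 probe sets, 64 controls were left out, and 34945 had 1 gene symbol in the platform annotation, 932 several and 9160 none; 34741 were updated by gene ID. Intensities were quantile normalized, raised to a floor of 14.3 (the size of the 2nd percentile), and put on the log2 scale. The brightest probe set stood for a gene, and the dimmest 40% of genes (7277) were left out. Of the tested values 11.1% were at the floor. The number of arrays limits the precision. Differences were tested with limma 3.58.1 in R 4.3.3 (moderated, with a variance trend, two-sided), and adjusted by Benjamini-Hochberg over all genes tested at 0.05. The test was checked on simulated data with independent noise on each array. For CLA against LA those data held no effect of the replicate number, so the check does not cover that case.

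The members and lists were chosen with earlier results of these data known. All members are named. Same-numbered LA arrays deviated together, with correlations of 0.855, 0.779, 0.503 and 0.553 across genes, so the numbers were taken to pair the samples; the labels call them biological replicates and do not say what a number shares. P-values measure the spread between these samples. At 8 h and at 12 h taken alone, CLA had 1 array, so the spread came from the LA arrays. The CLA array was assumed to vary like them. In the tests of LA replicate numbers, the spread came from the 2 arrays of the same number, at 8 h and 12 h. Alternatives were other scalings (2 settings), floors, filters, probe set rules, the replicate block and leaving out each array. Counts of array orders, pair changes and list values under other scalings were added after seeing the data.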

Additional observations from a re-analysis of the deposited data

Results flagged for a closer look

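In each group of 4 LA arrays, the highest and the lowest value of each member were set against the rest by Dixon's ratio, the gap to the nearest array divided by the whole range, with the 95% critical value. Of the 50 groups tested 2 passed, and chance gives about 1 in 20. Fdps in LA replicate 2 at 8 h was low, at 8.59 against 9.83 on the nearest array, a ratio of 0.838. Ebp in LA replicate 1 at 12 h was high, at 8.65 against 7.99 on the nearest array, a ratio of 0.944.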

How the results depend on the processing

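No member was called for CLA against LA, for its change with time or for time within LA under the block by replicate number, which called 0 genes in each. The number of genes called was not stable. For CLA over both times it was 28 with double the floor, 51 without a filter, 10 with the mean of all probe sets, 513 in the authors' deposited table and 0 to 23 with an array left out. At 8 h it was 273, 548, 38 and 18 with double the floor, no filter, the mean of all probe sets and a random block, and 0 to 193 with an array left out. At 12 h it was 100, 361 and 7 in the first 3 of these, 67 with only the arrays compared and 0 to 74 with an array left out. The change of effect with time gave 279, 739 and 1, and 0 to 51. LA over time gave 1 without a filter and 0 to 0 with an array left out. Replicate number differences gave 5472, 2063 without a filter and 406 to 6537 with an array left out, and LA replicate 1 against the rest 5800, 960 with the mean per number and 2201 to 6650. On the deposited scaling Mvk (-0.71), Insig1 (-0.077) and Npc1 (-0.30) turned to lower in LA replicate 1. A change of sign was read as a reversal only for a member called at first. The cause of these shifts was not tested. Values at the floor limit Mvk and Stard4.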
